A study of Mus musculus with 2 samples.

Results

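The 9 long noncoding RNA genes, *Malat1*, *Neat1*, *Kcnq1ot1*, *Gas5*, *Snhg1*, *Snhg3*, *Snhg8*, *Snhg12* and *Epb41l4aos*, were followed in the tag libraries of 2 mouse cell lines. They were taken by symbol and belong to the 14450 genes for which either library held an unambiguous sense tag, with 9 of 9 found. GC-1spg was made from type B spermatogonia of a mouse 10 days old, transformed with the plasmid pSV3-neo. GC-2spd (ts) was made from spermatocytes of a mouse 6 weeks old, transformed with the SV40 large T antigen. Both are immortalised lines kept in DMEM with fetal bovine serum, both carry SV40 sequences by their construction, and each was sequenced in 1 library. No difference below has a replicate check, and each test compares the tags of the 2 libraries, not the conditions. In bulk libraries, a change in the share of cells that make an RNA cannot be told apart from a change in RNA per cell.

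Both lines are labelled male germ cells. Of 15 germ cell markers, 2 had any tag. *Tdrd1* was listed with 0 copies in GC-1spg against 4 in GC-2spd (ts), *Spo11* with 2 and 0, and the other 13, *Ddx4*, *Dazl*, *Sycp3*, *Stra8*, *Kit* and *Zbtb16* among them, were at 0 in both. Tags were listed for 6 of 7 fibroblast markers, summing to 2867 TPM in GC-1spg against 1615 TPM in GC-2spd (ts), with *Thy1* at 0. *Col1a1* made most of that difference, with 2063 and 513 TPM, while *Vim* had 194 and 613 TPM and *Col3a1* 9.86 and 25.4 TPM, and the median log2 ratio of the 6 was 0.29. For 4 of 6 Sertoli cell markers the sums were 135 and 38.9 TPM, with *Rhox5* and *Cldn11* at 0, and *Wt1* had 620 copies in GC-1spg against 0 in GC-2spd (ts), while *Gata4* had 29 and 138 copies and *Sox9* 29 and 46. For 4 of 4 peritubular myoid markers they were 13.0 and 122 TPM, most of it from *Acta2*, with 50 copies in GC-1spg against 555 in GC-2spd (ts). *Cnn1* had 5 and 15 copies and *Myh11* 0 and 2, while *Des* went the other way, with 11 and 4. For 2 of 5 Leydig cell markers the sums were 0.789 and 1.06 TPM, with *Hsd3b1*, *Insl3* and *Cyp17a1* at 0. The part of these marker differences in the results below was not tested.

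Long noncoding RNAs of this kind are read mostly for what they do in the nucleus. *Malat1* gathers in nuclear speckles, the stores of splicing factors, and *Neat1* exists as a short polyadenylated RNA and as a long RNA on which paraspeckles, another kind of nuclear body, are built. *Kcnq1ot1* is an imprinted antisense RNA, transcribed from within *Kcnq1*, that silences neighbouring genes in cis. *Gas5* and the *Snhg* genes are hosts of small nucleolar RNAs (snoRNAs): the snoRNAs are cut from the introns and guide the modification of ribosomal RNA, while the spliced exons carry little coding potential and are often degraded by nonsense-mediated decay. *Epb41l4aos* is a long noncoding RNA transcribed in the opposite direction beside *Epb41l4a*.

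A tag is CATG and the 17 bases that follow it. Oligo(dT) priming and capture of the 3′ end leave, in principle, 1 tag per cDNA, at the CATG nearest upstream of the priming point, so that levels are not scaled by length. Levels are given as TPM, copies per 1000000 clean tags of the library, with 5072149 clean tags for GC-1spg and 4726808 for GC-2spd (ts). A single copy was worth 0.197 and 0.212 TPM, and tags with a single copy had been removed before the files were made. Log2 ratios are GC-2spd (ts) over GC-1spg with an exact 95% interval, and all intervals cover counting error only. A gene was called when the two-sided Audic-Claverie test, adjusted over all genes, gave an FDR (false discovery rate) no larger than 0.001 and the absolute log2 ratio was at least 1.

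The sites that carried most of the tags are shown here by their sequences, with CATG in capitals, because each result below turns on 1 or a few of them. Coordinates are those of GRCm38, from the GENCODE M21 transcripts, and all of these sites lie in annotated exons. The *Malat1* gene spans chr19:5795690-5802672 on the minus strand and the *Neat1* gene chr19:5824708-5845478 on the same strand. *Gas5* (chr1:161034422-161038539) and *Snhg12* (chr4:132308623-132311024) are on the plus strand, as is *Snhg1* (chr19:8723475-8726443). *Snhg3* (chr4:132348014-132353686) and *Snhg8* (chr3:123507552-123508404) are on the minus strand.
Malat1, most abundant site (chr19:5798501-5798521): CATGaaagggatcattatgtg
Neat1, most abundant site (chr19:5842702-5842722): CATGagtgctttgccactgaa
Snhg1, most abundant site (chr19:8726249-8726269): CATGaaagatctgtttgtcca
Snhg12, most abundant site (chr4:132310990-132311010): CATGcagttggttcaataaag
Snhg8, only site counted (chr3:123508152-123508172): CATGtaaagccgatacggtgt
Snhg3, only site counted (chr4:132352746-132352766): CATGcaatctgggggtgcgtc
Snhg3, site shared with an antisense gene (chr4:132352052-132352072): CATGgttctcattttttgagg

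Of the 9 genes, 1 was called higher in GC-2spd (ts), *Kcnq1ot1*, and 2 were called lower, *Neat1* and *Snhg3*. Among all 14450 genes, 11.7% were called higher and 7.84% lower. The other 6 genes were not called, and their log2 ratios lay between -0.17 for *Epb41l4aos* and 0.47 for *Gas5*. The 8 genes with tags in both libraries had a median log2 ratio of -0.03, beside 0.16 over the 11373 genes listed in both. Together the 9 genes took 1067 TPM in GC-1spg against 747 TPM in GC-2spd (ts), of which *Neat1* alone had 465 and 94.4 TPM.

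**Figure D1:**
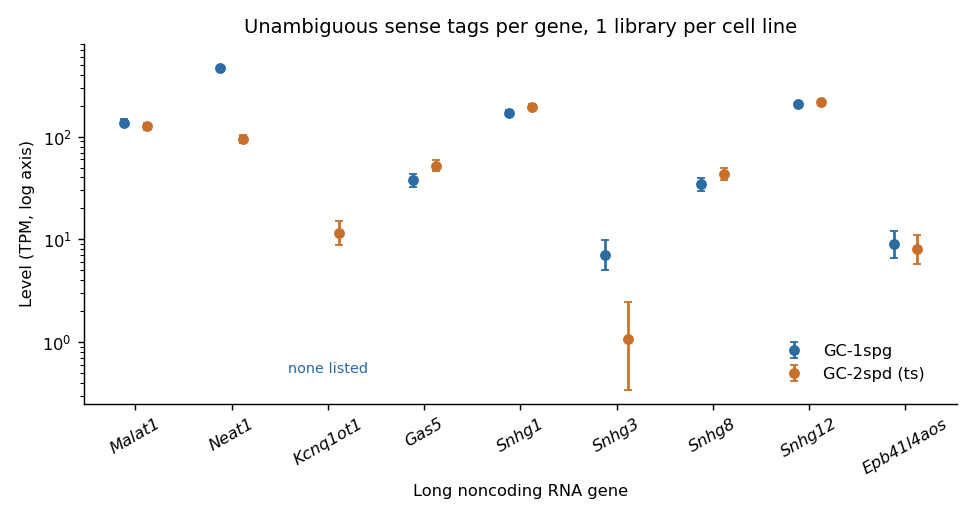
Level of the 9 long noncoding RNA genes in TPM on a log axis, 1 point per library (blue GC-1spg, orange GC-2spd (ts)), with exact 95% Poisson bars for counting error. *Neat1* fell from 465 to 94.4 TPM, *Kcnq1ot1* was listed at 11.6 TPM in GC-2spd (ts) and not in GC-1spg, and the points of *Malat1*, *Snhg1* and *Snhg12* lie close together.

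In GC-1spg the order of the levels was *Neat1* (465 TPM), *Snhg12* (206), *Snhg1* (171), *Malat1* (137), *Gas5* (37.7), *Snhg8* (34.3), *Epb41l4aos* (9.07), *Snhg3* (7.10) and *Kcnq1ot1*, which was not listed. The intervals of *Gas5* and *Snhg8* overlapped, as did those of *Epb41l4aos* and *Snhg3*, while other neighbours were apart. In GC-2spd (ts) it was *Snhg12* (215 TPM), *Snhg1* (195), *Malat1* (126), *Neat1* (94.4), *Gas5* (52.3), *Snhg8* (43.4), *Kcnq1ot1* (11.6), *Epb41l4aos* (8.04) and *Snhg3* (1.06). There the intervals overlapped for *Snhg12* and *Snhg1*, for *Gas5* and *Snhg8*, and for *Kcnq1ot1* and *Epb41l4aos*. *Neat1* thus led in GC-1spg and came after *Malat1* in GC-2spd (ts), with tags summed over all sites. By the most abundant tag alone, *Neat1* had 1009 copies in GC-1spg, below 1032 for *Snhg12*. In GC-2spd (ts) that tag of *Neat1* had 331 copies, above 142 for *Malat1*. The TPM levels above leave out tags that fit a further gene, which matters most for *Snhg3*. They count only RNA captured through oligo(dT). How fully each RNA was captured was not measured, so the order of the tags may not be the order of the RNAs in the cells.

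*Neat1*, the architectural RNA of paraspeckles, had 2359 tags in GC-1spg against 446 in GC-2spd (ts). It was 4.93-fold lower in GC-2spd (ts), with a log2 ratio of -2.30 (-2.45 to -2.15, Audic-Claverie FDR 4.82e-282). Tags were listed at 69 of its 114 CATG sites, 66 in GC-1spg against 25 in GC-2spd (ts). Of the 22 sites with tags in both libraries, 22 were lower in GC-2spd (ts), and for 18 of them the interval of the ratio lay below 0. A further 44 sites, with 354 copies, were listed in GC-1spg only, and 3 sites, with 6 copies, in GC-2spd (ts) only.

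The fall was unequal along *Neat1*. The short annotated transcript ends at base 3172 of the 20771 bases of the long one, which it overlaps from the 5′ end. The 3 sites with at least 5% of the tags in either library lie at bases 1378, 2757 and 20703 of the long transcript, the second being the last before an AATAAA in the short transcript and the last being the site nearest the 3′ end of the long one.
Neat1, base 1378 (chr19:5844081-5844101): CATGggggtagaggcgttcga
Neat1, base 2757 (chr19:5842702-5842722): CATGagtgctttgccactgaa
Neat1, base 20703 (chr19:5824756-5824776): CATGgccgcgctcaggttttg

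At base 2757, *Neat1* had 1013 copies in GC-1spg against 333 in GC-2spd (ts), at a log2 ratio of -1.50 (-1.69 to -1.32). At base 1378 it had 269 and 30 copies, a log2 ratio of -3.06 (-3.66 to -2.52). At base 20703 it had 257 and 14 copies, a log2 ratio of -4.10 (-4.99 to -3.32). All 3 sites were lower in GC-2spd (ts), and their intervals did not overlap between base 2757 and either of the others.

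Inside the span of the short transcript, 8 *Neat1* sites with tags summed to 1435 copies in GC-1spg against 382 in GC-2spd (ts). The log2 ratio was -1.81 (-1.97 to -1.64). Of these 8 sites, the site at base 664, with 14 and 4 copies, is annotated in the long transcript only. The 61 sites beyond that span, found in the long transcript, summed to 924 and 64 copies, a log2 ratio of -3.75 (-4.14 to -3.38). The long-only stretch held 39.2% of *Neat1* tags in GC-1spg (exact binomial interval 37.2 to 41.2) and 14.3% in GC-2spd (ts) (11.2 to 18.0). Both stretches were lower in GC-2spd (ts), the long-only one by more. Single copies had been removed, and 44 *Neat1* sites were listed in GC-1spg only. Sites with few copies may thus have lost a larger part of their tags in GC-2spd (ts). That would lower the ratio and the GC-2spd (ts) share of the long-only stretch, where most sites lie. The size of this effect was not tested, and the intervals leave it out.

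For the site usage of each gene, the share of tags at the most abundant site was compared by a two-sided Fisher exact test over the 7470 genes with enough tags, of which 5.19% changed at an FDR of at most 0.001 and by at least 10 percentage points. *Neat1* was 1 of the called genes, and the only 1 of the 5 long noncoding RNAs that could be tested. Its site at base 2757 held 42.9% of the tags in GC-1spg (40.9 to 45.0) and 74.7% in GC-2spd (ts) (70.4 to 78.6), 31.7 points more (Fisher exact test, FDR 2.65e-33). The removal of single copies at the other *Neat1* sites may have raised this difference, which was not tested. For *Malat1* the share of the main site was 22.0% and 23.8%, for *Gas5* 87.4% and 86.2%, for *Snhg1* 99.0% and 98.9%, and for *Snhg12* 99.2% and 99.8%. None of these 4 differences passed, the smallest of their FDR values being 0.300.

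**Figure D2:**
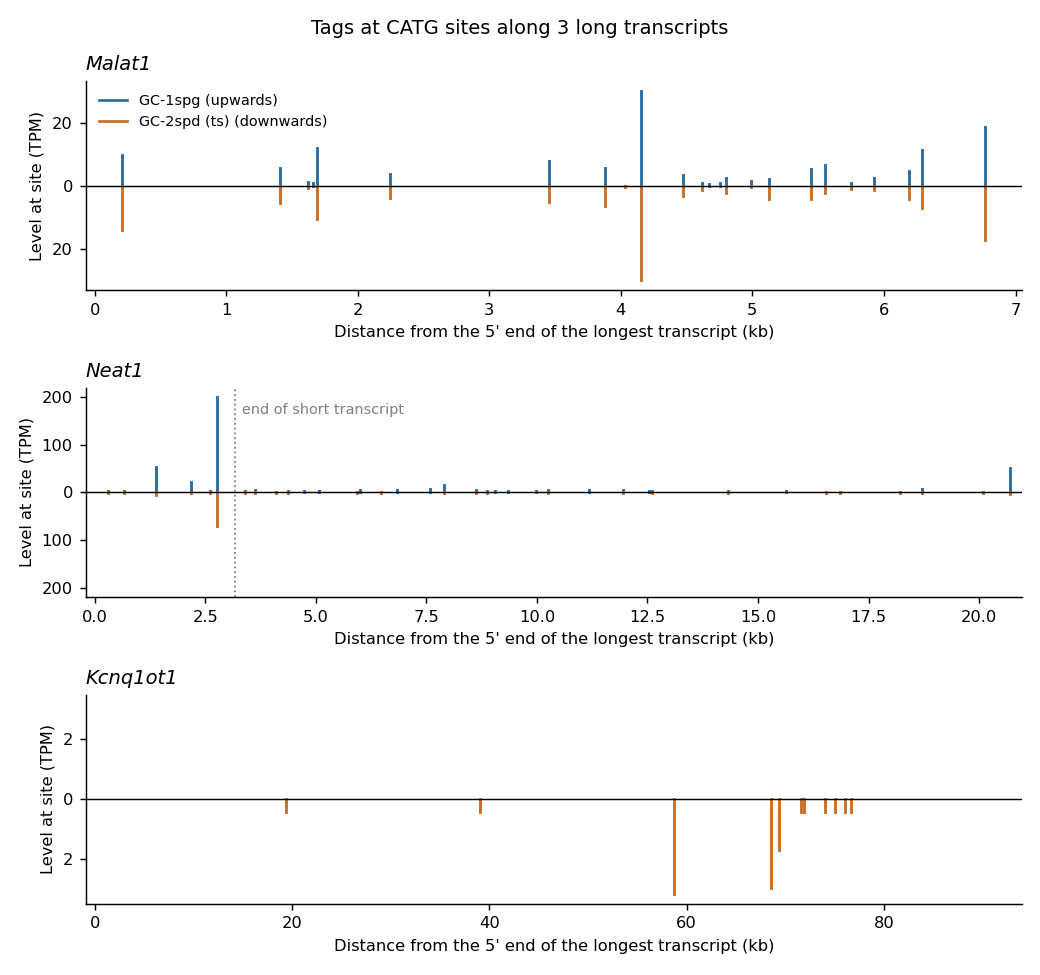
TPM at each CATG site along the longest transcripts of *Malat1*, *Neat1* and *Kcnq1ot1* against distance from the 5′ end in kb, with GC-1spg drawn upwards and GC-2spd (ts) downwards on the same scale within a panel. *Malat1* bars mirror each other, *Neat1* bars of GC-2spd (ts) are shorter at the 22 sites with tags in both libraries, with the tallest bars of both at base 2757, before the dotted end of the short transcript, and *Kcnq1ot1* has bars in GC-2spd (ts) only.

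*Malat1*, the speckle RNA that neighbours *Neat1* on chromosome 19, had 695 tags in GC-1spg against 596 in GC-2spd (ts), 137 and 126 TPM. The log2 ratio was -0.12 (-0.28 to 0.04), and the gene was not called (FDR 0.223). Tags were spread over 24 of its 30 sites, 20 of them with tags in both libraries. Of those 20 sites, 14 were lower and 6 higher in GC-2spd (ts), and the interval was below 0 for 2 of the lower and above 0 for 0 of the higher ones.

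No single site carried *Malat1*. The most abundant 1, at base 4152 of the 6983-base transcript, had 153 copies in GC-1spg against 142 in GC-2spd (ts). The site nearest the 3′ end, at base 6767, had 94 and 82 copies. The site at base 208 had 50 and 67 copies, and that at base 1691 had 60 and 50. At base 6290, where a run of 12 A follows before the next CATG, there were 57 and 34 copies. The sites at bases 3455 and 3876 had 40 and 25, and 28 and 30 copies. Except for base 6290, with an upper limit of -0.01 on the log2 scale, the intervals of these 7 ratios included 0. A *Malat1* tag with 64 and 48 copies also fit the antisense gene *Gm37376* and was left out of the sums, and 4 *Malat1* tags with 411 of its 1291 copies were within 2 bases of a tag of another gene.

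Sites inside the transcripts can receive tags when oligo(dT) primes on an internal run of A. Over the sites of all 9 genes, 6 of 119 sites with tags (5.04%) were followed by at least 8 A in a row before the next CATG, beside 21 of 531 sites without tags (3.95%). Only counted tags were used for this split. Sites without tags thus include those whose tags fit a further gene, such as the *Snhg3* site with 812 copies in GC-1spg against 450 in GC-2spd (ts). In *Malat1* this held for 1 of 24 sites with tags and in *Neat1* for 0 of 69. In *Kcnq1ot1* it held for 4 of 11 sites with tags, beside 21 of 444 without. Internal priming itself was not tested. With at least 6 A before the next CATG, *Malat1* had 4 of 24 sites with tags and 1 of 6 without. *Neat1* had 4 of 69 and 0 of 45. The poly(A) signals AATAAA or ATTAAA stood in that stretch for 24 of 119 sites with tags and 117 of 531 without, again over all 9 genes. The stretch up to the next CATG was longer at sites with tags, with a median of 173 bases beside 98, which leaves more room for either motif.

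*Kcnq1ot1*, the imprinted silencing RNA of the *Kcnq1* domain (chr7:143203458-143296549, minus strand), had 0 tags in GC-1spg against 55 in GC-2spd (ts), 11.6 TPM (8.77 to 15.1). It was called higher (Audic-Claverie FDR 8.00e-17). Since single copies were removed, each of its 15 tags, all listed in GC-2spd (ts) only, could have lost a single copy in GC-1spg. The one-sided 95% Poisson limit on the expected count of these tags in GC-1spg is then 23.1 copies. Against that limit, the 55 copies of GC-2spd (ts) were 2.56-fold higher in TPM. This value is no lower bound. It leaves out the counting error of the 55 copies and any single copies removed at other sites, and takes all 55 as *Kcnq1ot1*. The tags lay at 11 of 455 sites of the 93092-base transcript, none nearer than 19363 bases to the 5′ end or beyond base 76669. The 3 sites with most copies are given with their tags.
Kcnq1ot1, base 58736 (chr7:143237794-143237814), 13 copies in GC-2spd (ts), 1 mismatch (T8C): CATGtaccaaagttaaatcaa
Kcnq1ot1, base 68503 (chr7:143228027-143228047), 10 copies in GC-2spd (ts), no mismatch: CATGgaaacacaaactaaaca
Kcnq1ot1, base 69333 (chr7:143227197-143227217), 8 copies in GC-2spd (ts), no mismatch: CATGtggatttctgatttcaa

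Substitutions give the base of the transcript, the position counted from 1 at the 5′ end of the tag, and the base of the sequenced tag. The site at base 58736 had 15 copies over 2 tags, both with a mismatch, and the site at base 68503 had 14 over 3 tags that fit it alone. The assignment of these tags to *Kcnq1ot1* was weaker than for the other genes. Of its 15 tags, 8 had a mismatch (27 copies), and 10, with 34 of the 55 copies (61.8%), were within 2 bases of a tag of another gene, in 1 case of 65 other genes. A further 64 sense tags, with 88 copies in GC-1spg against 452 in GC-2spd (ts), fit *Kcnq1ot1* and at least 1 other gene and were not counted. For *Neat1* the share of copies within 2 bases of another gene's tag was 2.92%, and for *Snhg1* 0.392%.

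Of the 13 protein genes listed for the *Kcnq1ot1* imprinted domain and its flanks, 7 had tags, and 1 was called. Over all 14450 genes, 11.7% were called higher and 7.84% lower. *Cd81*, a tetraspanin gene at the flank of the domain, had 1071 copies in GC-1spg against 409 in GC-2spd (ts) and was called lower, with a log2 ratio of -1.29 (-1.45 to -1.12). *Kcnq1*, *Slc22a18* and *Ascl2* had no tag in either library. *Nap1l4*, a histone chaperone gene, had 237 and 174 copies, and *Tssc4* had 131 and 93. Neither was called. *Cdkn1c*, an imprinted cell cycle inhibitor gene of the domain, had 9 and 28 copies, at a log2 ratio of 1.74 (0.61 to 3.01, Audic-Claverie FDR 0.00345). It was not called either. *Phlda2* and *Tspan32* went the other way, each with 6 copies in GC-1spg against 0 in GC-2spd (ts). *Osbpl5* had 3 and 4 copies, and none of these was called. The median log2 ratio of the 5 genes with tags in both was -0.34.

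*Gas5*, a snoRNA host whose RNA is known to accumulate in growth-arrested cells, had 191 tags in GC-1spg against 247 in GC-2spd (ts), 37.7 and 52.3 TPM. The log2 ratio was 0.47 (0.19 to 0.75), and the gene was not called (FDR 0.00216). Its tags came from 6 sites, and the site nearest the 3′ end (chr1:161038244-161038264) held 167 and 213 of them. At that site the 2 libraries carried different tags. They differ in 1 base, shown in capitals after CATG.
Gas5, tag of the GC-2spd (ts) library, 0 copies in GC-1spg against 213 in GC-2spd (ts): CATGcagtgactgCacctttg
Gas5, tag of the GC-1spg library, 167 copies in GC-1spg against 0 in GC-2spd (ts): CATGcagtgactgTacctttg

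The tag of GC-2spd (ts) was that of the reference transcript, and that of GC-1spg carried C14T. With a mismatch allowed, as in the values above, both tags were counted. With exact matches required, *Gas5* had 24 tags in GC-1spg against 247 in GC-2spd (ts), and its log2 ratio became 3.47 and was called. Such pairs were looked for in all genes, as tags of at least 20 copies that differ in 1 base and are each listed in 1 library only. There were 91 pairs in 91 genes, and the base of the reference was in GC-2spd (ts) in 91 of them and in GC-1spg in 0. Of these genes, 54 were called under exact matching and not when a mismatch was allowed.

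The other *Gas5* sites with at least 5% of the tags in either library had few copies. At base 1099 of the longest transcript there were 7 copies in GC-1spg against 13 in GC-2spd (ts), and at a site in exon 8 of a 10-exon transcript there were 12 and 7. The intervals of both ratios included 0.

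*Snhg1*, host of several box C/D snoRNAs, had 865 tags in GC-1spg against 922 in GC-2spd (ts), 171 and 195 TPM. The log2 ratio was 0.19 (0.06 to 0.33), and the gene was not called (FDR 0.0121). Its main tag, in the last exon, held 848 and 909 copies. *Snhg12* had 1044 and 1018 tags, 206 and 215 TPM, with a log2 ratio of 0.07 (-0.06 to 0.19, FDR 0.415). Its sign turned with the scaling, to -0.11 with TMM factors and -0.02 when scaled to unambiguous sense tags. TMM scaling lowered the log2 ratio of genes with tags in both libraries by 0.17 and gave 1292 genes higher and 1443 lower, beside 1684 and 1133 with clean tags. Both hosts differed by far less than the 2-fold threshold.

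*Snhg8*, host of an H/ACA snoRNA, had 174 tags in GC-1spg against 205 in GC-2spd (ts), 34.3 and 43.4 TPM. Its log2 ratio was 0.34 (0.04 to 0.64), and the gene was not called (FDR 0.0535). A *Snhg8* tag with 16 and 55 copies, at the site nearest the 3′ end, also fit the snoRNA gene *Snora24* and was not counted.

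*Snhg3*, another snoRNA host, had 36 tags in GC-1spg against 5 in GC-2spd (ts), 7.10 and 1.06 TPM. It was called lower, with a log2 ratio of -2.75 (-4.45 to -1.39, Audic-Claverie FDR 5.81e-06). All these copies were of 1 tag, at base 168 of the 581-base transcript and not at the site nearest its 3′ end. The last site, at base 443, gave the tag shown above with 812 copies in GC-1spg against 450 in GC-2spd (ts), which fit *Snhg3* in sense and *Gm17300* in antisense and was therefore left out. With such tags given to the gene they fit in sense, *Snhg3* had 848 and 455 tags, the log2 ratio was -0.80, and the gene was no longer called. Its level was lower in GC-2spd (ts) by both counts, and its call rested on the smaller.

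*Epb41l4aos* had 46 tags in GC-1spg against 38 in GC-2spd (ts), 9.07 and 8.04 TPM, all of 1 tag on the plus strand of chromosome 18. The log2 ratio was -0.17 (-0.83 to 0.48, FDR 0.669). Differences smaller than this interval were not detectable at this depth.

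**Figure D3:**
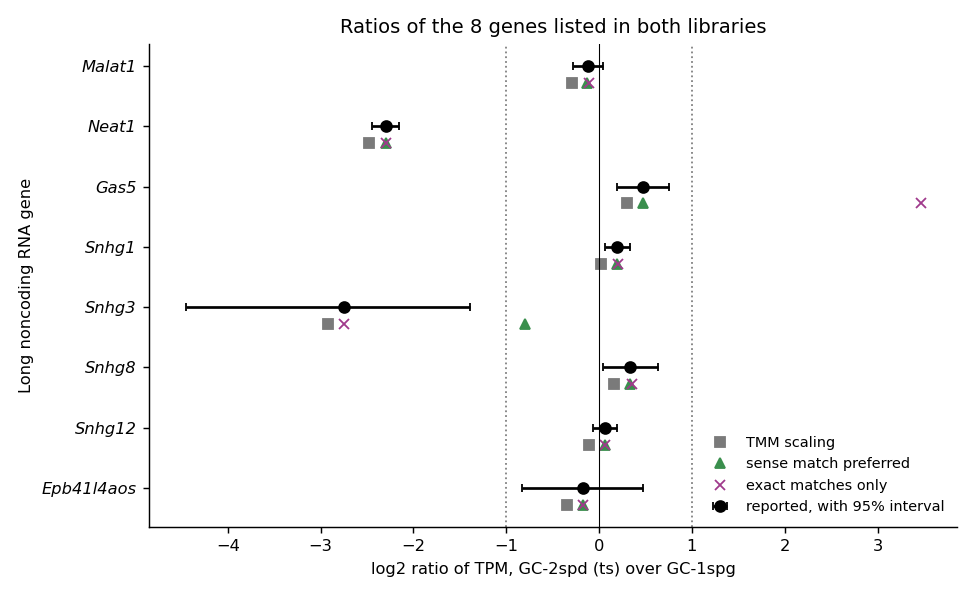
Log2 ratio of TPM, GC-2spd (ts) over GC-1spg, for the 8 genes with tags in both libraries, as black points with exact 95% intervals, and beneath each the value with TMM scaling (squares), with sense matches preferred (triangles) and with exact matches only (crosses). Dotted lines mark the threshold of 1. *Neat1* stayed beyond the line at -1, *Gas5* moved to 3.47 with exact matches, *Snhg3* to -0.80 with sense matches preferred, and *Snhg12* crossed 0 with TMM scaling.

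Of 15 symbols listed as further snoRNA host long noncoding RNAs, 11 had tags, 0 were called higher and 4 were called lower. For this list and those below, the shares over all 14450 genes were 11.7% called higher and 7.84% called lower. *Zfas1* had 2961 copies in GC-1spg against 533 in GC-2spd (ts), at a log2 ratio of -2.37 (-2.51 to -2.24). *Snhg18* had 445 and 159 copies, a log2 ratio of -1.38 (-1.65 to -1.12). *Dancr* had 418 and 163, a log2 ratio of -1.26, and *Snhg20* had 308 and 116, a log2 ratio of -1.31. For *Snhg20* all but 20 and 15 copies were of 1 tag, and without it the log2 ratio was -0.31. *Snhg6* had 296 and 398 copies and *Snhg17* 130 and 95, and neither was called. The median log2 ratio of the 9 with tags in both was -0.90, beside log2 ratios of 0.47 for *Gas5*, 0.19 for *Snhg1*, 0.34 for *Snhg8*, 0.07 for *Snhg12* and -2.75 for *Snhg3* (-0.80 with sense matches preferred).

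Among 19 further nuclear or imprinted long noncoding RNAs, 12 had tags, 0 were called higher and 1 was called lower. *Rian*, an imprinted snoRNA host, had 93 copies in GC-1spg against 5 in GC-2spd (ts), at a log2 ratio of -4.12 (-5.77 to -2.84), all of 1 A- and T-rich tag that carried a mismatch. *2900097C17Rik* had 236 and 319 copies and *Tug1* 150 and 120, and neither was called. The median over the 10 with tags in both was -0.19.

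All 15 paraspeckle proteins listed had tags, while their scaffold *Neat1* was 4.93-fold lower in GC-2spd (ts). Of them 1 was called higher, 1 lower, and the median log2 ratio was 0.16. *Fam98a* had 140 copies in GC-1spg against 271 in GC-2spd (ts), at a log2 ratio of 1.05 (0.76 to 1.36). *Taf15*, an RNA-binding protein gene, had 622 and 226 copies, a log2 ratio of -1.36 (-1.58 to -1.14). *Hnrnpk* had 4675 and 3955 copies and *Nono*, a core paraspeckle protein gene, 2417 and 2824, and neither was called.

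All 15 nuclear speckle proteins listed had tags as well, with 0 called higher, 1 lower and a median log2 ratio of 0.17. *Clk1*, a kinase that phosphorylates splicing factors, had 636 copies in GC-1spg against 238 in GC-2spd (ts), at a log2 ratio of -1.32 (-1.54 to -1.10). *Srsf1* had 1613 and 1550 copies and *Srsf6* 1149 and 1244, and neither was called. The speckle RNA *Malat1* was not called either.

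Of 18 symbols for snoRNP proteins and their assembly factors, 16 had tags, with a median log2 ratio of 0.10. Of these 16, 4 were called higher and 1 lower, beside 11.7% and 7.84% of all genes. *Nop56*, a core box C/D protein gene, had 29 copies in GC-1spg against 1239 in GC-2spd (ts), at a log2 ratio of 5.52. Of these, 1 tag held 0 and 1213 copies, and without it 29 and 26 copies were left and the log2 ratio was -0.06. An antisense tag of *Nop56* was also split by 1 base between the libraries, with 224 copies of 1 form in GC-1spg only and 99 of the other in GC-2spd (ts) only. *Naf1*, an assembly factor of H/ACA particles, had 236 and 697 copies, a log2 ratio of 1.66 (1.45 to 1.88). *Gar1*, an H/ACA core protein gene, had 105 and 197 copies, a log2 ratio of 1.01, and *Znhit6*, a box C/D assembly factor gene, had 77 and 207, a log2 ratio of 1.53. *Pih1d1*, a subunit gene of the R2TP assembly complex, had 278 and 85 copies, a log2 ratio of -1.61 (-1.98 to -1.25). *Snu13* with 2012 and 1415 copies and *Nop10* with 1890 and 999 were not called.

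All 14 nonsense-mediated decay factors listed had tags, and the median log2 ratio was 0.54. Of them 2 were called higher and 0 lower, beside 11.7% and 7.84% of all genes. *Smg1*, the kinase of the pathway, had 186 copies in GC-1spg against 373 in GC-2spd (ts), at a log2 ratio of 1.11 (0.85 to 1.37). *Smg9* had 2 and 48 copies, a log2 ratio of 4.69 (2.76 to 7.77), of which 1 tag held 0 and 41. *Eif4a3*, an exon junction complex gene, had 772 and 539 copies and was not called.

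**Figure D4:**
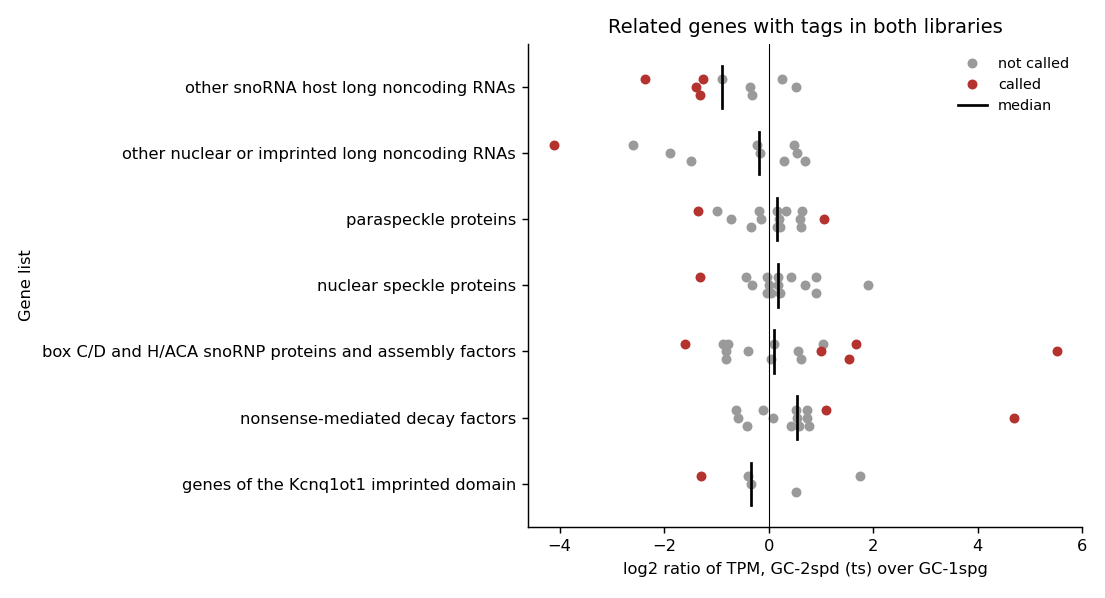
Log2 ratio of TPM, GC-2spd (ts) over GC-1spg, for the genes of 7 related lists that had tags in both libraries, 1 point per gene, red where called, with a black bar at the median of the list. The 4 called genes among the further snoRNA hosts lie below 0, and the medians of the paraspeckle and speckle protein lists are 0.16 and 0.17.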

How the data were processed

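DGE tag libraries were made from total RNA of the 2 lines with oligo(dT) beads, *Nla*III and *Mme*I. The authors removed tags with adaptors, unread bases or a single copy. For every remaining tag they deposited the raw count of copies and a TPM value, which is the count per 1000000 clean tags of the file. The authors' matching to UniGene (program not given in the sources used here) was left aside.

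The counts were matched to all CATG+17 tags of the GENCODE M21 transcripts (GRCm38), both strands, with at most 1 mismatch and exact matches first. Sense tags whose best matches belonged to 1 gene were summed (54.7% of the copies in GC-1spg, 57.9% in GC-2spd (ts)), and TPM was recomputed from these sums. Tags that fit more than 1 site of a gene were left out of the values per site. Genes were tested with the two-sided Audic-Claverie test and Benjamini-Hochberg adjustment over 14450 genes, with 0.01 TPM for a gene at 0. Without replicates, edgeR's quasi-likelihood test could not be fitted. Ratios have exact conditional binomial intervals (95%), shares Clopper-Pearson intervals and levels exact Poisson intervals. Site usage was tested by Fisher's exact test in genes with at least 2 sites and 20 tags in each library. Both tests were tested on simulated data. Copies made by PCR from 1 molecule could not be told apart.

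The members and lists were chosen with earlier results of these data known. All 9 members were named. Each list gives its called genes, up to 5, and its 2 uncalled genes with most tags. A gene that this rule names is not reported here. Tags with at least 5% of a member's copies were named by their sites. Genes with no tag, *Cdkn1c*, *Phlda2*, *Tspan32*, *Osbpl5*, the 1-base tag pairs, and the main tags of *Snhg20*, *Nop56* and *Smg9* were picked out after their values were seen. Alternatives were exact matching, the 3′-most site, the longest transcript, no pseudogenes, sense matches preferred, tags of small RNA genes counted, the main tag only, TMM or sense tag scaling, the binomial test, edgeR's exact test with an assumed biological coefficient of variation (BCV), at least 10 tags, and 0.5 tags added. Python 3.11.15, numpy 2.4.6, scipy 1.17.1, matplotlib 3.10.9, R 4.3.3 and edgeR 4.0.16 were used.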

Additional observations from a re-analysis of the deposited data

Results flagged for a closer look

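Tags that fit only the opposite strand of a long noncoding RNA were in no comparison above, and 7 of the 9 genes had some. *Malat1* had 397 such copies in GC-1spg against 252 in GC-2spd (ts), at a log2 ratio of -0.55 (-0.79 to -0.32), beside -0.12 for its sense tags. The most abundant of them had 143 and 48 copies (CATGcaatactgcagatccaa) and 139 and 107 copies (CATGacattattttttctgcc). *Neat1* had 338 and 34 antisense copies, a log2 ratio of -3.21 (-3.77 to -2.70), beside -2.30 in sense. *Kcnq1ot1*, with no counted sense tag in GC-1spg, had 117 antisense copies there and 29 in GC-2spd (ts), and 112 and 20 of these were of 1 tag that ends in a run of A (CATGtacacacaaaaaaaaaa). That tag fit *Kcnq1ot1* only with 1 mismatch, so most of these antisense copies are weakly assigned.

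*Gas5* had more antisense than sense copies in both libraries, 273 in GC-1spg against 335 in GC-2spd (ts), 1.43 and 1.36 per sense copy. Its antisense tags did not move together: CATGtccacttgtcacaggag had 58 and 187 copies, a log2 ratio of 1.79 (1.36 to 2.24), and CATGttataatacactttaat had 146 and 75, a log2 ratio of -0.86 (-1.28 to -0.45). *Snhg1* had 201 and 134 antisense copies, 0.232 and 0.145 per sense copy. *Snhg8* had 25 and 16, and *Snhg12* 84 and 46. *Snhg3* and *Epb41l4aos* had 0 antisense tags of their own. These values are given without a test, and the source of the antisense tags was not tested.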

How the results depend on the processing

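Of 190 values recomputed under alternatives, 172 kept their direction and their side of the threshold or, for counts and shares, stayed near the reported value. With an assumed BCV, edgeR's exact test called *Neat1* (log2 ratio -2.30) at 0.1 and 0.2 but not at 0.4 (FDR 0.128), and *Snhg3* (-2.75) at 0.1 but not at 0.2 (FDR 0.00256) or 0.4 (FDR 0.166). The number of the 9 genes called lower was then 1 at 0.2 and 0 at 0.4, and over all genes 511 were higher and 489 lower at 0.2, and 108 and 136 at 0.4. Exact matching called *Gas5* at 3.47, gave 2 genes called higher and 2 with changed site usage, and turned the *Gas5* main site share difference from -1.20 to 86.2 points. With the most abundant tag only, *Gas5* was called at 12.14, a value set by the 0.01 TPM for no tag, and 2 genes were called higher. With sense matches preferred *Snhg3* was at -0.80 and uncalled, which left 1 gene called lower. With the 3′-most site only, *Kcnq1ot1* and *Snhg3* had no tag and no value, 0 genes were called higher and 1 lower. *Snhg12* turned to -0.11 with TMM scaling and to -0.018 with sense tag scaling. A run of at least 6 A followed 10.9% of sites with counted tags, beside 16.2% of those without. With at least 8 A the order was the other way, at 5.04% and 3.95%. *Kcnq1ot1* log2 ratios depend on the value put for no tag and are not given. No paired analysis was possible because each line has 1 library.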
